A study of Mus musculus with 6 samples.

Results

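The retinoic acid receptors and the enzymes that make, remove and break down retinoic acid were followed in RNA-Seq of renal CD11B+ cells. The set was chosen by gene symbol as 10 genes of the 46603 counted: the receptors Rara, Rarb, Rarg, Rxra and Rxrb, the retinaldehyde dehydrogenases Aldh1a1, Aldh1a2 and Aldh1a3, the retinoic acid hydroxylase Cyp26b1 and the retinaldehyde reductase Dhrs3. All 10 passed the filter on low counts, as did 15440 genes in all. CD11B is integrin αM, carried by monocytes, macrophages and neutrophils, and the cells were pulled from digested whole kidneys with magnetic CD11b beads, 3 days after ischemia-reperfusion injury (IRI-AKI) in which both renal pedicles had been clamped for 28 minutes. There were 3 libraries from PTEC DN RAR mice and 3 from Cre- controls, all males of 10 to 12 weeks. The PTEC DN RAR mice were PEPCK CRE+ and carried Rosa26-LSL-RARaT403X, an allele that yields a truncated, dominant negative RARα once Cre has removed its stop cassette. The Cre- controls carried the same allele and were PEPCK CRE-, so nothing removes the stop cassette in them. PEPCK-Cre is active in proximal tubular epithelial cells (PTECs), so the CD11B+ cells that were sequenced were not the cells meant to carry the active allele. No uninjured mice were among the 6 libraries.

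Retinol is oxidized to retinaldehyde by retinol dehydrogenases, and retinaldehyde is oxidized to retinoic acid by the ALDH1A enzymes, while DHRS3 turns retinaldehyde back into retinol and the CYP26 enzymes break retinoic acid down. Retinoic acid binds RARs, which sit on DNA as pairs with RXRs at direct repeats of a short hexamer and exchange corepressors for coactivators when the ligand arrives. Several genes of the pathway, among them Rarb, Cyp26a1 and Dhrs3, are themselves induced by retinoic acid in many cell types, and macrophages are among the cells that can make it through ALDH1A enzymes.

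The response element that RARs are best known for, a direct repeat of 2 hexamers (each AGGTCA or AGTTCA or GGTTCA or GGGTCA) with a spacer of 5 bases, was searched on both strands of RefSeq promoter windows of GRCm38.p6, which run from 250 bases before to 50 bases after a start site. Of the 10 genes, 9 had a window, 18 windows in all, and Aldh1a3 had none. The repeat was found in 1 of those 9 genes, Rarb, and in 31 of all 27025 genes with a window (32 of 32851 windows, 0.0974%). Among the 85 genes of the wider retinoid lists described further down, 62 had a window, and 2 held the repeat, Rarb and Cyp26a1. The 250 bases before the start are shown for Rarb and Cyp26a1 as the genes with the repeat, and for Dhrs3 as the gene whose level differed between genotypes, with the repeat in capitals.
Rarb (minus strand, chr14:16575477-16575726): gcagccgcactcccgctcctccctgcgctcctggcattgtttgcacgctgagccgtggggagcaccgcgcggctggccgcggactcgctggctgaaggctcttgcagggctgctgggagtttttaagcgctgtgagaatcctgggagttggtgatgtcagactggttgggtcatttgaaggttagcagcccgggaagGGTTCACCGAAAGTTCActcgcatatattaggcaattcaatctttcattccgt
Cyp26a1 (plus strand, chr19:37697558-37697807): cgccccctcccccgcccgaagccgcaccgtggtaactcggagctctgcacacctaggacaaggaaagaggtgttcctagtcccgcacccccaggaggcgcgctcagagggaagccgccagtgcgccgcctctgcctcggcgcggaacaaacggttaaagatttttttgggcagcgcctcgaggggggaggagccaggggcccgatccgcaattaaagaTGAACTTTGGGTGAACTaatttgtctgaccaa
Dhrs3 (plus strand, chr4:144892577-144892826): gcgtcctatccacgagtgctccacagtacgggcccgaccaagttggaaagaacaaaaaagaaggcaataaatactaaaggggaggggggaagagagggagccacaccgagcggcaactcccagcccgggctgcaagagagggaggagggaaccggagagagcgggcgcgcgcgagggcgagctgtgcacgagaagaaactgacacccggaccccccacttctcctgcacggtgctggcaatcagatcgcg
In Rarb the repeat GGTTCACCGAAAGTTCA lay from 53 to 37 bases before a start site that is inside the annotated gene. In Cyp26a1 it lay from 32 to 16 bases before the start and ran on the opposite strand, where it reads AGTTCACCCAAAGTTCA. No hexamer of the 4 was present in any of the Dhrs3 windows, which says only that these letters are not within those stretches.

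The 6 libraries held 29318041 to 46517005 counted reads, and 3 reads were 0.0645 to 0.102 CPM before TMM scaling. CPM in the text are the deposited counts relative to library size after TMM scaling, which assumes that most genes do not differ. Mitochondrial transcripts took 5.03% to 8.77% of reads in Cre- controls and 10.4% to 12.1% in PTEC DN RAR mice, without overlap, and the part of this in the differences given here was not tested. Of the alignments, 42.9% to 47.8% were not unique and were left out of the counts. The summed level of the 16 proximal tubule markers was 727 to 984 CPM in Cre- controls and 2324 to 3661 CPM in PTEC DN RAR mice, and all 16 were higher at an adjusted p under 0.05. All 7 markers of the thick ascending limb and all 9 of endothelium were higher as well. Of 9 collecting duct markers only 4 were higher, and their sums overlapped, at 122 to 327 CPM in Cre- controls and 274 to 631 CPM in PTEC DN RAR mice. By contrast, 7 of 8 infiltrating monocyte markers were lower, with sums of 3161 to 3634 CPM against 1492 to 1572 CPM. Of 10 neutrophil markers 5 were lower (471 to 849 CPM against 299 to 426 CPM), and of 10 large peritoneal macrophage markers 5 were lower (89.2 to 307 CPM against 40.2 to 66.4 CPM). Itgam, the gene for CD11B, measured 1737, 1959 and 1995 CPM in Cre- controls, compared with 1366, 1303 and 980 CPM in PTEC DN RAR mice (log2 fold change -0.64, adjusted p = 0.00818), whereas Ptprc, the gene for CD45, had a log2 fold change of -0.11 (adjusted p = 0.534). The 8 markers of resident macrophages summed to 15775 to 20717 CPM in Cre- controls and 17950 to 22899 CPM in PTEC DN RAR mice. Replicate 2 of the Cre- controls stood apart in its markers of mesothelium and of large peritoneal macrophages, so values without it are given for the genes they move.

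Of the 10 genes, 1 was lower in PTEC DN RAR mice (adjusted p under 0.05) and 0 were higher. Of the 15440 tested genes, 17.1% were called lower and 23.6% were called higher, 40.6% in either direction. Adjusted p-values are Benjamini-Hochberg values over those genes from the quasi-likelihood test of edgeR, unless another tool is named. Dhrs3 was the lower gene, and its libraries were also the only ones of the 10 that did not overlap between genotypes, against 53.4% of tested genes (24.2% lower and 29.2% higher). The median log2 fold change of the 10 was 0.03, and that of all tested genes was 0.04. The 10 genes covered a wide range of levels. Divided by the length of the merged exons, the mean over the 6 libraries was 64.3 CPM per kilobase for Dhrs3, followed by 17.9 for Rxra, 16.8 for Rxrb, 8.62 for Rara, 8.06 for Rarg and 3.57 for Aldh1a2. The other 4 lay below 1 CPM per kilobase, with Aldh1a1 at 0.498, Cyp26b1 at 0.446, Rarb at 0.336 and Aldh1a3 at 0.220. In this order, Rxra and Rxrb, Rara and Rarg, Aldh1a1 and Cyp26b1, and Rarb and Aldh1a3 overlapped in their libraries within both genotypes, and Cyp26b1 and Rarb overlapped within PTEC DN RAR mice. Measured against the longest transcript in place of merged exons, Rxrb, Rarg and Rarb moved ahead of Rxra, Rara and Cyp26b1, respectively.

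**Figure D1:**
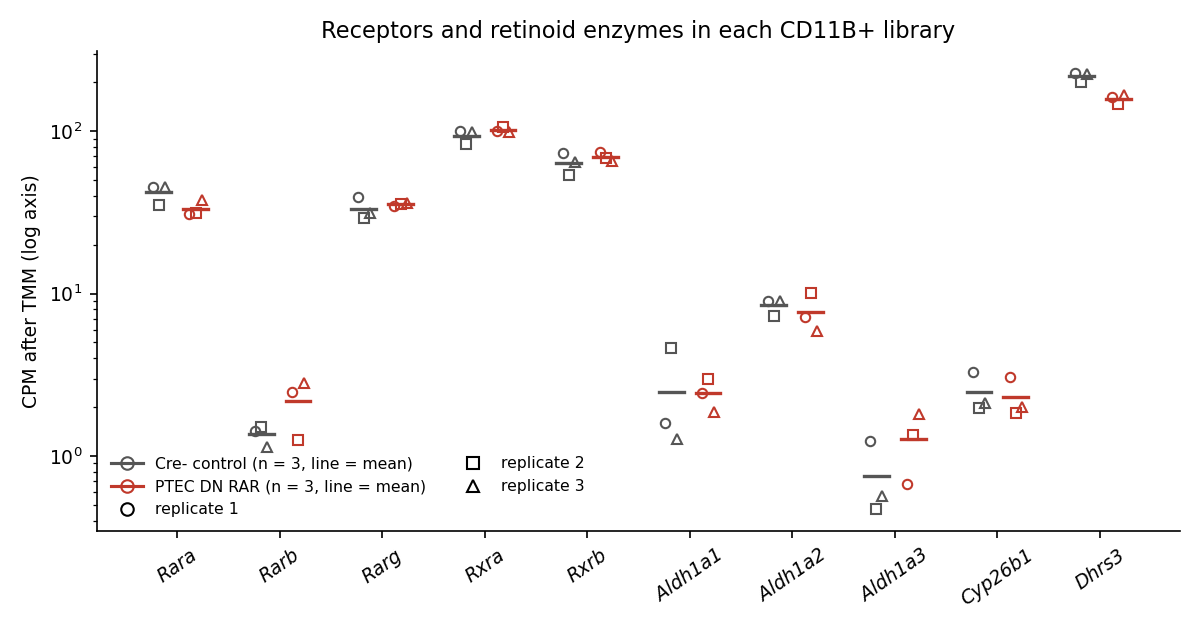
Level of each gene in each library, in CPM after TMM scaling on a log axis, for Cre- controls (grey) and PTEC DN RAR mice (red). Each symbol is 1 library and each line the mean of 3. The libraries of the 2 genotypes separate for Dhrs3 and overlap for the other 9 genes.

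Dhrs3 (ENSMUSG00000066026, chr4:144892827-144928209, plus strand), the reductase that returns retinaldehyde to retinol and so limits the supply for retinoic acid synthesis, was the most abundant of the 10. It measured 229.6, 202.0 and 223.5 CPM in Cre- controls, compared with 161.6, 146.6 and 166.1 CPM in PTEC DN RAR mice. Every PTEC DN RAR library lay below every Cre- control library. The means were 218 ± 14.5 CPM and 158 ± 10.2 CPM (SD, n = 3 each), a fold of 0.724 with a 95% interval of 0.628 to 0.835, which on the log2 scale was -0.47 with a standard error of 0.09 (adjusted p = 0.00461). Between 6021 and 8962 reads stood behind each library's value. With a list of 25 pan-leukocyte genes as the reference for scaling, Dhrs3 had a log2 fold change of -0.24 (adjusted p = 0.145) and lost its call. Under TMM scaling, 9 of those 25 genes were themselves lower in PTEC DN RAR mice and 0 were higher. Their median log2 fold change was -0.20. Which scaling lies closer to the true levels was not tested. Pan-leukocyte scaling moved the median of all genes by 0.23, from 0.04 to 0.26. It moved the split of calls from 2636 lower and 3640 higher to 709 lower and 5101 higher. Relative to the median of all genes, Dhrs3 stood at -0.50 under both scalings, a distance that a change of scaling leaves nearly the same for every gene and that does not bear on the lost call. Fewer cells of a type and less RNA per cell cannot be told apart in such bulk libraries.

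Dhrs3 was also set against cell markers within each library, a description made after the values had been seen and therefore without a test. Per 1000 CPM of the leukocyte reference genes, Dhrs3 was at 13.2, 11.1 and 13.0 CPM in Cre- controls and at 10.1, 9.49 and 12.1 CPM in PTEC DN RAR mice. Here the genotypes overlapped, with replicate 3 of the PTEC DN RAR mice above replicate 2 of the controls. The sum of the reference genes itself differed, at 17248 to 18120 CPM in Cre- controls and 13727 to 16036 CPM in PTEC DN RAR mice. Per 1000 CPM of resident macrophage markers, Dhrs3 was at 11.1, 12.8 and 12.5 CPM in Cre- controls and at 7.61, 6.40 and 9.25 CPM in PTEC DN RAR mice, with no overlap. Markers of infiltrating monocytes, neutrophils and large peritoneal macrophages moved in the same direction as Dhrs3. Those of proximal tubule, thick ascending limb and endothelium moved in the other. The part of all these markers in the difference was not tested. Among the 8991 genes with a mean of at least 10 CPM, the log2 CPM of Cd300lb, Ube2l3 and Hbp1 were most like those of Dhrs3 over the 6 libraries, with Pearson's r of 0.999, 0.998 and 0.998. These are descriptions over libraries that also differ in genotype.

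**Figure D2:**
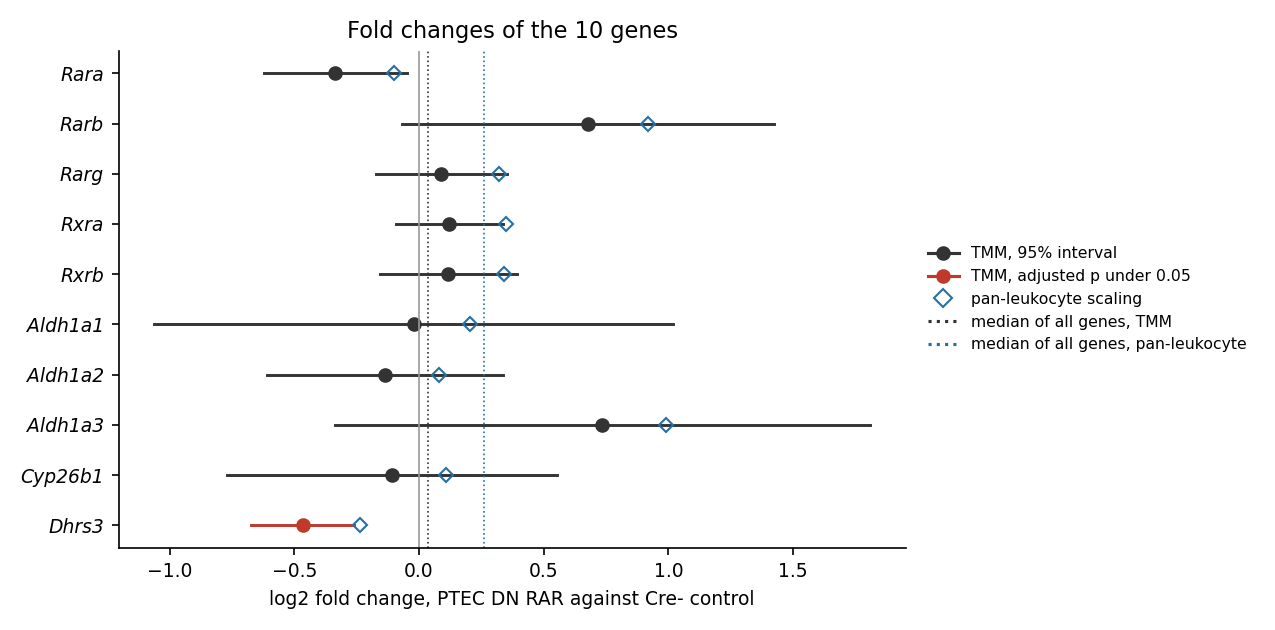
Log2 fold change of each gene, PTEC DN RAR mice against Cre- controls, with the 95% interval under TMM scaling (filled circles) and the value under pan-leukocyte scaling (open diamonds). Dotted lines mark the median of all genes under each scaling, at 0.04 and 0.26. The interval of Dhrs3, from -0.67 to -0.26, lies below 0, as does that of Rara before adjustment, from -0.62 to -0.05.

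Among the RARs, which bind retinoic acid, Rara and Rarg were of similar abundance and Rarb was scarce. Rara (ENSMUSG00000037992, chr11:98927818-98974942, plus strand), which encodes RARα, stood at 45.4, 35.3 and 45.1 CPM in Cre- controls, compared with 30.7, 31.5 and 37.6 CPM in PTEC DN RAR mice. Replicate 2 of the controls lay below replicate 3 of the PTEC DN RAR mice, so the genotypes overlapped. The log2 fold change was -0.33 (standard error 0.13, 95% interval -0.62 to -0.05) with an adjusted p = 0.0628, short of the threshold. Without control replicate 2 it was -0.49 (adjusted p = 0.0181), and without PTEC DN RAR replicate 3 it was -0.47 (adjusted p = 0.0279). Without control replicates 1 or 3 or PTEC DN RAR replicates 1 or 2, the adjusted p was 0.143, 0.139, 0.173 and 0.156. With DESeq2 the log2 fold change was -0.37 (adjusted p = 0.0378), and with pan-leukocyte scaling it was -0.10 (adjusted p = 0.664). Rara was called in 5 of the 15 settings run. The counts have no entry of their own for the truncated receptor, and whether its reads would count toward Rara is not given in the sources used here.

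Rarg (ENSMUSG00000001288, chr15:102234938-102257517, minus strand), the gene for RARγ, measured 39.1, 29.4 and 31.3 CPM in Cre- controls, compared with 34.8, 35.6 and 36.0 CPM in PTEC DN RAR mice. The PTEC DN RAR libraries lay close together and inside the range of the controls. On the log2 scale the difference was 0.09 with a standard error of 0.12 (adjusted p = 0.561), and its 95% interval ran from -0.17 to 0.35, which leaves room for a modest difference in either direction. Without control replicate 2 the log2 fold change turned to -0.0328 (adjusted p = 0.851), and with pan-leukocyte scaling it was 0.32 (adjusted p = 0.0997). A ratio of Rara to Rarg reads within a library does not depend on how libraries are scaled. It was 1.16, 1.20 and 1.44 in Cre- controls, compared with 0.885, 0.886 and 1.04 in PTEC DN RAR mice. All 3 PTEC DN RAR libraries were below all 3 controls, with means of 0.938 ± 0.0917 and 1.27 ± 0.151 (SD, n = 3). The ratio was picked after the values had been seen, so it is given without a test, as a description of these libraries.

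Rarb (ENSMUSG00000017491, chr14:16430839-16819156, minus strand), the gene for RARβ, was the scarce receptor, with 36 to 133 reads per library. It measured 1.43, 1.51 and 1.14 CPM in Cre- controls, compared with 2.46, 1.25 and 2.82 CPM in PTEC DN RAR mice. PTEC DN RAR replicates 1 and 3 lay above all controls and replicate 2 lay among them. The log2 fold change was 0.68 (standard error 0.33, 95% interval -0.07 to 1.42, adjusted p = 0.130), and without PTEC DN RAR replicate 2 it was 0.95 (adjusted p = 0.0255) and without PTEC DN RAR replicate 3 it was 0.40 (adjusted p = 0.402). Of the Rarb exon bases, 34.1% overlap exons of Top2b on the other strand, a gene with a mean of 3712 reads, and whether the counting used strand is not given in the sources used here. Without strand, reads of the 2 genes could not be told apart in the shared part. The counting set 0.457% to 0.527% of alignments aside as ambiguous. Whether reads of the shared part were among them, which would lower the Rarb count, is not given. Summed per kilobase, Rara made up 54.4% ± 2.93 of RAR reads in Cre- controls and 46.5% ± 2.12 in PTEC DN RAR mice, Rarg 44.1% ± 2.72 and 51.0% ± 2.58, and Rarb 1.49% ± 0.348 and 2.51% ± 0.875 (SD, n = 3).

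The RXRs, the partners that RARs need to bind DNA, were the most abundant receptors among the 10 genes, and neither passed the test. Rxra (ENSMUSG00000015846, chr2:27676440-27762957, plus strand) measured 99.6, 82.8 and 98.8 CPM in Cre- controls, compared with 100.6, 106.4 and 98.9 CPM in PTEC DN RAR mice, a log2 fold change of 0.12 (standard error 0.09, 95% interval -0.09 to 0.34, adjusted p = 0.334). Only replicate 2 of the controls lay apart from the other 5 libraries, and without it the log2 fold change was -0.00236. With pan-leukocyte scaling Rxra had a log2 fold change of 0.35 and an adjusted p = 0.0376. Rxrb (ENSMUSG00000039656, chr17:34031812-34038399, plus strand) measured 73.9, 53.7 and 64.4 CPM in Cre- controls, compared with 74.5, 68.6 and 65.4 CPM in PTEC DN RAR mice, again with control replicate 2 lowest and the other libraries overlapping. Its log2 fold change was 0.12 (standard error 0.12, 95% interval -0.16 to 0.39, adjusted p = 0.462). Without control replicate 2 it turned to -0.0349 (adjusted p = 0.819), and with pan-leukocyte scaling it was 0.34 (adjusted p = 0.0628). Per kilobase, Rxra made up 51.6% ± 1.88 of RXR reads in Cre- controls and 51.5% ± 1.83 in PTEC DN RAR mice. Rxrg, the RXR best known from muscle and brain, stayed under the filter at 1 to 9 reads per library.

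**Figure D3:**
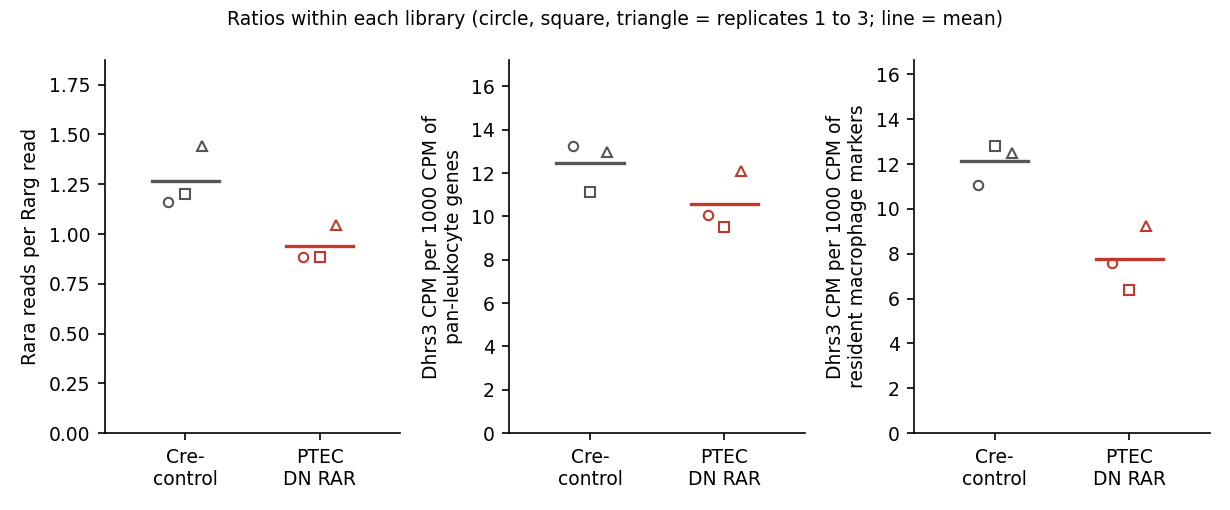
Ratios within each library for Cre- controls (grey) and PTEC DN RAR mice (red), with 1 symbol per library and lines at the means of 3. From left to right, the panels show Rara reads per Rarg read, Dhrs3 CPM per 1000 CPM of pan-leukocyte genes and Dhrs3 CPM per 1000 CPM of resident macrophage markers, and the genotypes overlap in the middle panel only.

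Of the 3 ALDH1A enzymes that carry out the last step of retinoic acid synthesis, Aldh1a2 (RALDH2) was the main one in these cells. Aldh1a2 (ENSMUSG00000013584, chr9:71215789-71296243, plus strand) measured 9.02, 7.28 and 9.06 CPM in Cre- controls, compared with 7.14, 10.1 and 5.89 CPM in PTEC DN RAR mice. The highest and the lowest library were both from PTEC DN RAR mice, and the log2 fold change was -0.14 (standard error 0.21, 95% interval -0.61 to 0.34, adjusted p = 0.628). Without control replicate 2 it was -0.27 and without PTEC DN RAR replicate 2 it was -0.38 (adjusted p = 0.390 and 0.143), but without PTEC DN RAR replicate 3 it was -0.0174 and with pan-leukocyte scaling it turned to 0.0795 (adjusted p = 0.955 and 0.791). Per kilobase, Aldh1a2 made up 84.7% ± 8.09 of the reads of the 3 enzymes in Cre- controls and 81.2% ± 3.51 in PTEC DN RAR mice (SD, n = 3).

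Aldh1a1 (RALDH1; ENSMUSG00000053279, chr19:20492715-20643465, plus strand) measured 1.59, 4.60 and 1.27 CPM in Cre- controls, compared with 2.44, 2.99 and 1.86 CPM in PTEC DN RAR mice. Control replicate 2 was the highest of all 6 libraries, and the other 2 controls were the lowest. The log2 fold change was -0.02 (standard error 0.46, 95% interval -1.06 to 1.02, adjusted p = 0.974), and without control replicate 2 it was 0.72 (adjusted p = 0.102). In the same library, mesothelium markers summed to 20.5 CPM against 1.68 to 7.54 CPM in the other 5, with Msln at 4.36 CPM and Upk1b at 4.86 CPM, and large peritoneal macrophage markers summed to 307 CPM against 40.2 to 97.7 CPM. Their part in the Aldh1a1 value was not tested. Aldh1a1 has a near-identical neighbour, Aldh1a7, and reads that matched both were left out of the counts, so the levels of both genes are uncertain.

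**Figure D4:**
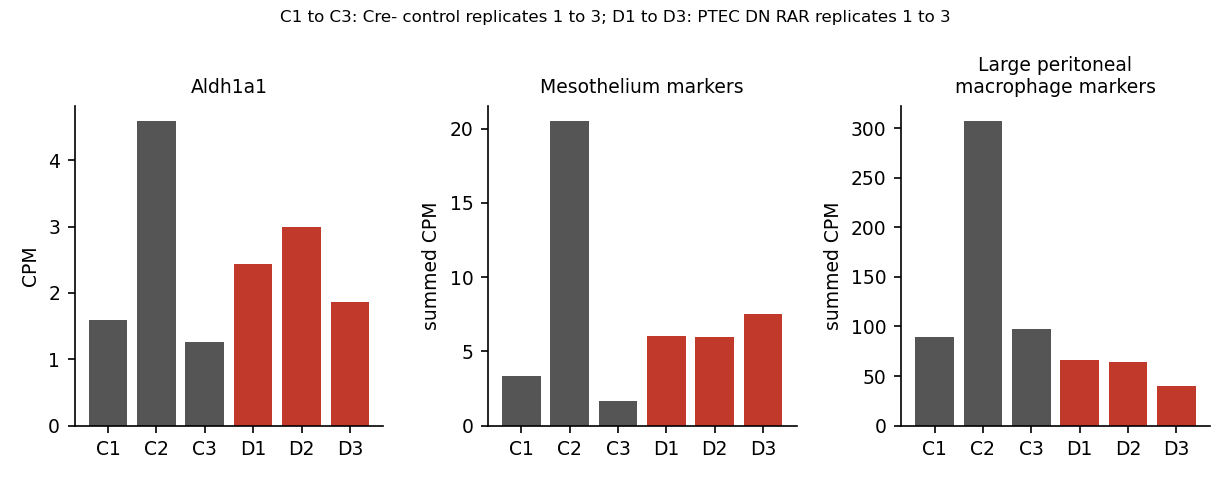
Aldh1a1 (CPM), the summed CPM of 5 mesothelium markers and the summed CPM of 10 large peritoneal macrophage markers, with 1 bar per library on axes that start at 0. Cre- control replicate 2 is the highest library in all 3 panels, at 4.60, 20.5 and 307 CPM.

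Aldh1a3 (RALDH3; ENSMUSG00000015134, chr7:66390890-66427517, minus strand) was the scarcest of the 10, with 14 to 86 reads per library. It measured 1.23, 0.470 and 0.570 CPM in Cre- controls, compared with 0.669, 1.34 and 1.82 CPM in PTEC DN RAR mice. The genotypes overlapped, and the log2 fold change of 0.74 had a standard error of 0.47 and a 95% interval from -0.34 to 1.81 (adjusted p = 0.241). It was 0.45 without control replicate 2, 1.29 without control replicate 1 and 0.35 without PTEC DN RAR replicate 3, and it passed in none of these. A difference of the size of the called fall in Dhrs3 could not have been detected for this gene at this depth and spread. Cyp26b1 (ENSMUSG00000063415, chr6:84571414-84593908, minus strand), which hydroxylates retinoic acid and so ends its signal, measured 3.30, 1.98 and 2.12 CPM in Cre- controls, compared with 3.06, 1.84 and 2.01 CPM in PTEC DN RAR mice. In both genotypes replicate 1 was high and the other 2 were close together. The log2 fold change was -0.11 (standard error 0.29, 95% interval -0.77 to 0.55, adjusted p = 0.790), and without control replicate 2 it was -0.29 (adjusted p = 0.515). Its direction turned without control replicate 1 (0.16), without PTEC DN RAR replicate 2 (0.0265) and with pan-leukocyte scaling (0.11).

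Around these 10 genes, 8 lists of the retinoid pathway with 85 genes in all were counted, of which 68 passed the filter on low counts. Of the 68, 8 fell in PTEC DN RAR mice, 23 rose and 37 did not pass the test, while 17.1% of all tested genes were lower and 23.6% were higher. The median log2 fold change was 0.16 against 0.04 for all genes. Of the 6 RARs and RXRs, 5 were tested and none passed. Of the 3 CYP26 enzymes, 2 were tested and neither passed. Cyp26a1, whose promoter repeat is shown above, had 1, 8 and 6 reads in Cre- controls, compared with 2, 15 and 13 reads in PTEC DN RAR mice (log2 fold change 0.55, adjusted p = 0.615), and Cyp26c1 had at most 2 reads in a library.

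Of 11 genes for retinoic acid synthesis, 10 were tested, of which 1 was lower and 5 were higher, with a median log2 fold change of 0.77, beside 17.1% lower and 23.6% higher among all genes. The proximal tubule markers rose and the monocyte markers fell in the same libraries, with the sums given above, and their part in these differences was not tested. Rdh10, the main retinol dehydrogenase of the embryo, measured 12.3, 12.1 and 11.0 CPM in Cre- controls, compared with 20.9, 20.3 and 20.7 CPM in PTEC DN RAR mice. The genotypes were far apart against their spread, with a log2 fold change of 0.80 and a standard error of 0.11 (adjusted p = 0.000892). Dhrs9, a dehydrogenase that also oxidizes retinol, moved the other way, from 7.51, 8.25 and 12.8 CPM to 4.71, 3.32 and 3.28 CPM (log2 fold change -1.34, adjusted p = 0.00365). Adh1, an alcohol dehydrogenase that is abundant in epithelium and liver, rose from 16.7 ± 6.54 to 32.0 ± 3.25 CPM (SD, n = 3, log2 fold change 0.93, adjusted p = 0.0169). Rdh5, Aldh1a7 and the carotene oxygenase Bco1 rose from 0.905 ± 0.329, 0.859 ± 0.410 and 0.223 ± 0.0386 CPM, by log2 fold changes of 1.11, 1.25 and 2.44 (adjusted p = 0.0178, 0.0262 and 0.00120). Of the 6 that passed, Rdh10, Dhrs9, Adh1 and Rdh5 act between retinol and retinaldehyde, the first step. Leaving out control replicate 3 ended the calls of Adh1, Rdh5 and Aldh1a7 (adjusted p = 0.0654, 0.0746 and 0.0825), as did leaving out control replicate 2 for Rdh5 and Aldh1a7 (0.0602 and 0.0639), PTEC DN RAR replicate 1 for Aldh1a7 (0.0699) and PTEC DN RAR replicate 2 for Adh1 and Aldh1a7 (0.0512 and 0.0748).

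Of 5 genes for retinaldehyde reduction and retinol storage, 4 were tested, and beside the fall of Dhrs3 its relative Dhrs4 rose from 28.8, 24.0 and 24.5 CPM to 33.4, 37.6 and 35.4 CPM (log2 fold change 0.46, adjusted p = 0.00893). Without control replicate 3 the adjusted p of Dhrs4 was 0.0602. Of 12 genes for binding and uptake, 7 were tested, of which 1 was lower and 4 were higher (all tested genes, 17.1% and 23.6%). Fabp5, which carries fatty acids and can hand retinoic acid to other receptors, fell from 50.8, 26.8 and 38.9 CPM to 11.4, 6.95 and 8.14 CPM (log2 fold change -2.14, standard error 0.26, adjusted p = 0.000599). Among the higher genes were Lrp2, the proximal tubule receptor megalin that takes up retinol bound to its carrier, with 75.6 ± 20.2 and 239.9 ± 63.3 CPM, Ttr, which partners that carrier in blood, with 3.04 ± 0.559 and 17.4 ± 2.72 CPM, and Stra6, the membrane receptor for that carrier, with 0.511 ± 0.181 and 2.15 ± 0.371 CPM in Cre- controls and PTEC DN RAR mice (SD, n = 3). Their log2 fold changes were 1.67, 2.52 and 2.05 (adjusted p = 0.00100, 0.000155 and 0.00174). Lrp2 is itself on the proximal tubule list, and the summed proximal tubule markers given above rose in the same libraries as these genes. The part of tubular RNA in these rises was not tested.

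The 14 corepressors and coactivators of RARs were all tested, and 2 were lower and 1 was higher, where 17.1% and 23.6% of all tested genes were. Tbl1xr1, a subunit of a corepressor complex, fell from 95.1 ± 12.4 to 74.0 ± 1.59 CPM (log2 fold change -0.36, adjusted p = 0.0241), and Sin3a, a scaffold of another, from 70.6 ± 4.74 to 56.3 ± 2.92 CPM (-0.33, adjusted p = 0.0164). With pan-leukocyte scaling the adjusted p was 0.411 for Tbl1xr1 and 0.531 for Sin3a. Tbl1xr1 lost its call without control replicates 2 or 3 or PTEC DN RAR replicates 1 or 2 (adjusted p from 0.0507 to 0.0685), and Sin3a without PTEC DN RAR replicate 2 (adjusted p = 0.0580). The 11 that did not pass included Ncor1, Ep300 and Crebbp.

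**Figure D5:**
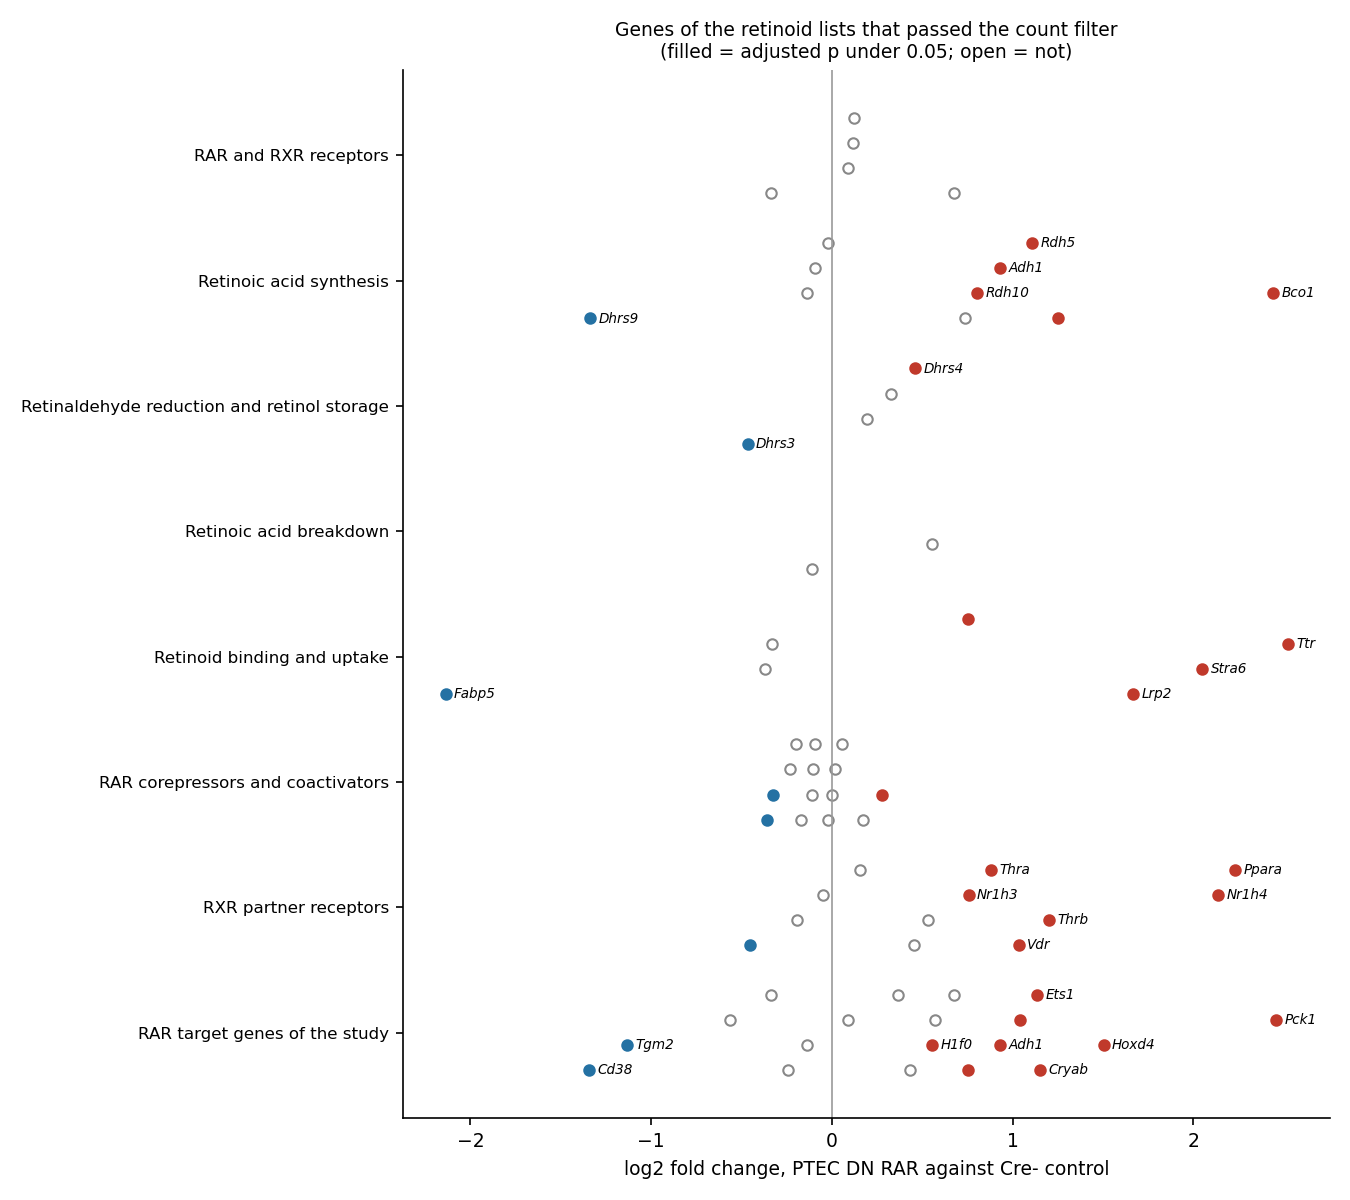
Log2 fold change of each gene that passed the count filter in the 8 retinoid lists, PTEC DN RAR mice against Cre- controls, with 1 point per gene. Filled points have an adjusted p under 0.05 (red higher, blue lower), open points do not, and vertical offsets only separate points. Names are given for genes with an adjusted p under 0.025 and a log2 fold change of at least 0.45 in size. No RAR, RXR or CYP26 gene is filled, and Fabp5, Dhrs9, Cd38 and Tgm2 lie furthest to the left.

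For gene set analysis of human sepsis-associated AKI, the study used 27 RAR target genes together with ALDH1A2, ALDH1A3 and CYP26B1. The gene sets it reported for the CD11B+ libraries were others. The last list held the mouse forms of those 27 target genes, including Rara, Rarb and Rarg. Of these, 19 were tested, of which 2 were lower, 8 were higher and 9 did not pass, with a median log2 fold change of 0.55, beside 17.1% lower and 23.6% higher among all genes. The lower genes were Tgm2, the most abundant of the list, and Cd38. Tgm2, transglutaminase 2, a classic retinoic acid response gene of macrophages, measured 496, 433 and 629 CPM in Cre- controls, compared with 235, 232 and 243 CPM in PTEC DN RAR mice. All 3 PTEC DN RAR libraries were far below all controls, a log2 fold change of -1.13 with a standard error of 0.13 (adjusted p = 0.000579). Cd38, an ectoenzyme that consumes NAD and that retinoic acid induces in myeloid cell lines, measured 117, 105 and 188 CPM against 61.7, 61.3 and 38.6 CPM (log2 fold change -1.34, standard error 0.25, adjusted p = 0.00370). Both calls held with pan-leukocyte scaling, at log2 fold changes of -0.91 and -1.14. Of the Tgm2 exon bases, 8.03% overlap Rprd1b on the other strand, a gene with a mean of 1139 reads.

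The higher genes of this list included Pck1, H1f0, Ets1, Cryab, Adh1, Il2ra and Hoxd4. Pck1, the gene for PEPCK whose promoter drives the Cre and which PTECs express strongly, measured 42.2, 23.6 and 42.8 CPM in Cre- controls, compared with 130, 278 and 190 CPM in PTEC DN RAR mice (log2 fold change 2.46, adjusted p = 0.000716). The linker histone H1f0 rose from 107 ± 7.22 to 157 ± 26.0 CPM, the transcription factor Ets1 from 23.7 ± 7.85 to 52.0 ± 13.9 CPM and the small heat shock protein Cryab from 20.0 ± 6.03 to 44.5 ± 12.7 CPM (SD, n = 3), with log2 fold changes of 0.55, 1.13 and 1.15 (adjusted p = 0.00921, 0.00902 and 0.00707). Without control replicate 3 the adjusted p of H1f0 was 0.0514, and Il2ra, with an adjusted p of 0.0486, was called in 9 of the 15 settings run, the reported one included. The target genes of this list thus moved in both directions within the same libraries. Markers of proximal tubule, thick ascending limb and endothelium were higher and monocyte markers were lower in those same libraries, as given above. Their part in either direction was not tested.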

How the data were processed

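RNA was polyA selected and sequenced as 1 library per sample, 3 PTEC DN RAR and 3 Cre- control. The authors deposited raw read counts per Ensembl gene, without normalization. The submitters' processing notes list STAR 2.5.0a, HTSeq 0.6.1, edgeR, limma and GRCm38, and the annotation release and strand setting are not given in the sources used here. Reads that aligned to several places were not counted, which lowers near-identical genes. Of 46612 gene lines, 9 repeats were collapsed, leaving 46603 genes, and 27 symbols turned into dates were restored. Libraries of 1 genotype differed by far more than sampling noise (chi-square per degree of freedom of at least 27.1), so each was counted as a sample. Nothing in the labels says that preparations were separate beyond 1 sample each, so p-values measure the spread between these samples, which may be technical. In R 4.3.3, edgeR 4.0.16 was used for the filter on low counts (filterByExpr), TMM scaling and the quasi-likelihood test (glmQLFit, glmQLFTest), and p-values were adjusted by Benjamini-Hochberg over 15440 genes, with a threshold of 0.05. Standard errors are the log2 fold change over the square root of F, and intervals cover 95% by the t distribution. In a test on simulated data for this comparison (15217 genes), 41 of 43 genes changed by a log2 of -2, 27 of 50 by -1, 36 of 50 by 1 and 46 of 50 by 2 were called, and 13 unchanged genes. No other tested genes were changed there, while 40.6% of genes were called in the real comparison, so these rates need not hold for it. Coordinates and exon lengths come from GENCODE M21 and promoter sequences from RefSeq, both on GRCm38. The 10 genes, the pathway lists and the marker lists were chosen with earlier results of these data known. Named genes are the 10, list genes with an adjusted p under 0.05 (values for at most 6 per list, by mean CPM), the 3 genes most like each called gene by Pearson's r of log2 CPM, and markers by list, of which Itgam, Ptprc, Msln, Upk1b and Gata6 were singled out after their values were seen, as were Adh7, Rxrg, Cyp26a1, Cyp26c1, Ncor1, Ep300 and Crebbp from the pathway lists. Alternatives used DESeq2 1.42.0, limma-voom 3.58.1, other scalings and filters, a replicate block, the longest transcript and leaving out each library. Tables were read with pandas 2.3.3 and numpy 2.4.6 and figures drawn with matplotlib 3.10.9, in Python 3.11. Some genes of the lists are counted but not reported here.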

Additional observations from a re-analysis of the deposited data

How the results depend on the processing

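With scaling on 25 pan-leukocyte genes, Dhrs3 was at -0.24 (adjusted p = 0.145) and no longer called, Rxra was called at 0.35, Aldh1a1, Aldh1a2 and Cyp26b1 turned to 0.20, 0.0795 and 0.11, 0 of the 10 genes were lower and 1 higher, pathway genes called lower went from 8 to 4 and those called higher from 23 to 29, and genes called lower from 2636 to 709, with 87.8% of calls higher against 58.0%. Those 25 genes themselves fell under TMM scaling, with 9 called lower and 0 higher. Rara passed at -0.37 with DESeq2, at -0.36 without a filter and at -0.33 with the replicate block. Each of these settings made 2 of the 10 lower. Aldh1a1 turned to 0.20 with limma-voom, 0.00429 with at least 10 counts in every library and 0.16 with the replicate block. Replicate numbers join different mice, and deviations of same-numbered libraries correlated at -0.0147, 0.211 and 0.0286, so the pairing was not used. The block called 2606 genes lower and 3612 higher against 2636 and 3640, and the libraries did not all correlate best with their own number.

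Leaving out 1 library at a time, log2 fold changes ranged from -0.49 to -0.28 for Rara, 0.40 to 0.95 for Rarb, -0.0328 to 0.22 for Rarg, -0.00236 to 0.16 for Rxra, -0.0349 to 0.23 for Rxrb, -0.38 to 0.72 for Aldh1a1, -0.38 to -0.0174 for Aldh1a2, 0.35 to 1.29 for Aldh1a3, -0.37 to 0.16 for Cyp26b1 and -0.56 to -0.42 for Dhrs3, which stayed called each time. Rarg, Rxra, Rxrb and Aldh1a1 turned without control replicate 2, Aldh1a1 also at 0.0961 without PTEC DN RAR replicate 3, and Cyp26b1 without control replicate 1 and at 0.0265 without PTEC DN RAR replicate 2. Of the 10, 1 to 2 were then lower and 0 to 1 higher. Pathway genes called lower ranged from 5 (without PTEC DN RAR replicate 2) to 10, and those called higher from 15 (without control replicate 3) to 22. The cause of these changes was not tested, beyond the smaller number of libraries. With 3 libraries per genotype and 14 to 137 reads, Rarb, Aldh1a1, Aldh1a3 and Cyp26b1 had intervals wider than a log2 unit, so differences of the size seen for Dhrs3 were not detectable in them.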

Other observations

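RXRs also pair with other nuclear receptors, and of 13 such partners 12 were tested, of which 1 was lower, 6 were higher and 5 did not pass, with a median log2 fold change of 0.65. Among all tested genes 17.1% were lower and 23.6% higher, and the median was 0.04. Vdr, the vitamin D receptor, measured 30.0, 19.8 and 28.4 CPM in Cre- controls and 45.0, 45.1 and 70.3 CPM in PTEC DN RAR mice (log2 fold change 1.04, adjusted p = 0.00561). Thra, a thyroid hormone receptor, rose from 17.4 ± 2.35 to 32.0 ± 2.46 CPM (SD, n = 3, log2 fold change 0.88), Nr1h3, the oxysterol receptor LXRα, from 11.9 ± 2.06 to 20.1 ± 4.99 CPM (0.76), Thrb from 2.30 ± 0.420 to 5.30 ± 0.962 CPM (1.20) and Nr1h4, the bile acid receptor FXR of tubule and liver, from 3.67 ± 0.590 to 16.2 ± 4.24 CPM (2.14), with adjusted p = 0.00114, 0.0171, 0.00338 and 0.000327. Without control replicates 2 or 3 or PTEC DN RAR replicate 2, the adjusted p of Nr1h3 was 0.0521, 0.0792 and 0.0546. Ppara was the other higher gene. Nr4a2, an orphan receptor induced in activated macrophages, fell from 8.32 ± 1.17 to 6.09 ± 0.432 CPM (log2 fold change -0.45, adjusted p = 0.0449), and its adjusted p was 0.397 with pan-leukocyte scaling. Nr4a2 was called in 6 of the 15 settings run, the reported one included. The call was also lost with scaling to library size, with either other filter on low counts and with the replicate block (adjusted p from 0.0520 to 0.0561), and without controls 1 or 3 or PTEC DN RAR replicates 1 or 2 (0.0742 to 0.131). Proximal tubule markers were higher in the same PTEC DN RAR libraries (2324 to 3661 CPM against 727 to 984 CPM), and their part in these rises was not tested.

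Adh7, a retinol-oxidizing alcohol dehydrogenase of epithelium that stayed under the filter, had 41 reads in Cre- control replicate 2 and 1 to 14 reads in the other 5 libraries. It was picked after its values were seen. That library is the one with the highest Aldh1a1, and with Gata6, a factor of large peritoneal macrophages, at 3.19 CPM against 0.158 to 0.613 CPM elsewhere.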
